A study of Homo sapiens with 8 samples.

Results

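A set of 10 genes of the immunoglobulin family of cell adhesion molecules, chosen by symbol as a neural and inflammatory set, were followed in neuroblastoma cells exposed to media conditioned by embryonic ganglia. The 10 genes were ICAM1, VCAM1, ALCAM, MCAM, NCAM1, NCAM2, L1CAM, CHL1, NRCAM and NFASC, out of 60676 genes in the count matrix, and all 10 had a row in it. The cells were IGR-N91, a single established human neuroblastoma line derived from a bone marrow metastasis, grown as aggregates in hanging drops. They were kept in control medium, in which no tissue had been cultured, or in one of 3 conditioned media. E8-cSGcm came from chick sympathetic ganglia and E8-cDRGcm from chick dorsal root ganglia, and E15.5-mSGcm (E15.5-mGScm in some labels) came from mouse sympathetic ganglia, E8 and E15.5 being the embryonic day. Cells were collected after 20 h according to the protocol and 24 h according to the design text. The labels name no gene deletion or drug in any group. The mouse and chick media differ in species and in embryonic day together, so these cannot be told apart.

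Each of the 4 groups had 2 libraries, which the labels call duplicates without saying whether they were separate cultures, so p-values measure the spread between these samples only. Libraries held between 7930765 reads in genes (E15.5-mSGcm 1) and 15060744 (control 2), and both E15.5-mSGcm libraries were shallower than the other 6. A count of 3 reads in a library, taken as the limit of detection, corresponded to 0.197 to 0.384 normalised CPM (reads scaled to library size), and this limit covers counting error only. All 11 noradrenergic markers examined, among them HAND2 and DBH, were detected, with a summed level of 2328 to 2330 CPM in control, 1527 to 1625 in E8-cSGcm, 1367 to 1382 in E8-cDRGcm and 1621 to 1669 in E15.5-mSGcm. Of the markers of other cells, CDH5, CLDN5 and EMCN (endothelial), AIF1, CD3E and TYROBP (leukocyte) and SOX10 and FOXD3 (Schwann lineage) had no read in any library. The 6 endothelial markers summed to at most 1.61 CPM, with VWF at 2 to 11 and KDR at 0 to 14 reads, and the 7 leukocyte markers to at most 0.769 CPM. The 6 Schwann markers summed to 0.592 to 1.07 CPM in control, 1.20 to 1.61 in E8-cSGcm, 2.02 to 3.22 in E8-cDRGcm and 2.05 to 2.86 in E15.5-mSGcm, of which ERBB3 gave 9 to 43 reads. Fibroblast or mesenchymal markers were present, led by PDGFRB (2360 to 3859 reads), LUM (584 to 969) and COL1A1 (249 to 2021), and all 7 summed to 417 to 428 CPM in control, 435 to 448 in E8-cSGcm, 448 to 464 in E8-cDRGcm and 477 to 487 in E15.5-mSGcm. The part of these markers in the results was not tested.

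Adhesion molecules of this family carry immunoglobulin domains outside the cell and bind a like molecule on the next cell, an integrin or another surface protein. ICAM1 and VCAM1 are ligands for leukocyte integrins and are well known as genes switched on by inflammatory cytokines through NF-kB, a family of transcription factors held in the cytoplasm until a signal releases them. NCAM1, NCAM2 and the L1 group (L1CAM, CHL1, NRCAM, NFASC) act in the developing nervous system, in axon growth, bundling and the anchoring of ion channels, and several of them are made by neuroblastoma cells. ALCAM and MCAM are found on many cell types, neural crest derivatives included.

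The promoters of the 2 inflammatory members are shown because these genes had the widest range of levels across the media. The 250 bases before the RefSeq start are given 5′ to 3′ on the gene's strand, from assembly GRCh38.p14, at chr19:10270870-10271119 for ICAM1 and chr1:100719492-100719741 for VCAM1, both on the plus strand. Capitals mark matches on either strand to GGNNNTTCC, to TATAAA and to the NF-kB consensus.
ICAM1: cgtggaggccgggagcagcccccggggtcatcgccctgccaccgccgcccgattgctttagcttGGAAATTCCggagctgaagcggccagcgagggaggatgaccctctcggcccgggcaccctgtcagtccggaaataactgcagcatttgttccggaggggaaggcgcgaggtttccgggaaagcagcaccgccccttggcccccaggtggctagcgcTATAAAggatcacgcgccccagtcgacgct
VCAM1: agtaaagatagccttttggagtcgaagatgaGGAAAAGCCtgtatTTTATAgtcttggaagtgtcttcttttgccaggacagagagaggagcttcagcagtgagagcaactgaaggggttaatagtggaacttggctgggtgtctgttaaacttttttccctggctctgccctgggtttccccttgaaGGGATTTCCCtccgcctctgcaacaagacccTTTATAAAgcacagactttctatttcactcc
Positions are counted back from the start, with -1 as the base before it. In ICAM1 GGAAATTCC lay at -186 to -178 and TATAAA at -30 to -25. VCAM1 held GGGATTTCC at -62 to -54, which overlaps a match to the NF-kB consensus at -62 to -53, and TATAAA at -29 to -24. On the opposite strand VCAM1 matched GGNNNTTCC at -219 to -211, TATAAA at -205 to -200 and at -31 to -26, which overlaps the match on the plus strand, and the NF-kB consensus at -62 to -53 again. The motif GGNNNTTCC was chosen after the sequences had been read. It was present in 17.1% of 35116 RefSeq promoter windows of the same length, TATAAA in 10.7% and the NF-kB consensus in 9.96%. Of the members, 9 had a window in the RefSeq table, with 15 windows in all. Among these members GGNNNTTCC occurred in 2, TATAAA in 2 and the NF-kB consensus in 1. These are counts of genes and the shares above are of windows, so they cannot be set side by side.

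Of the members, 9 passed the filter on low counts, among 16680 genes tested. CHL1, an L1 relative on chromosome 3, had 0 reads in all 8 libraries. ICAM1 and VCAM1 passed only through the E15.5-mSGcm libraries, whereas the other 7 had reads in every library. Levels of different genes were set side by side per kilobase of exon, counting every annotated exon of a gene. On this scale ALCAM had the highest mean level over the 8 libraries (78.8 CPM per kb), followed by L1CAM (51.0), NCAM1 (29.5) and NRCAM (17.9). NCAM2 (5.59), MCAM (3.93) and NFASC (3.52) lay lower, and their ranges over libraries overlapped. The exon length so counted was 21271 bp for NFASC, 8286 bp for NCAM2 and 7422 bp for MCAM, and the order depends on it. ICAM1 reached 9.28 ± 0.0580 CPM per kb (SD, n = 2) and VCAM1 1.26 ± 0.0112 in E15.5-mSGcm.

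**Figure D1:**
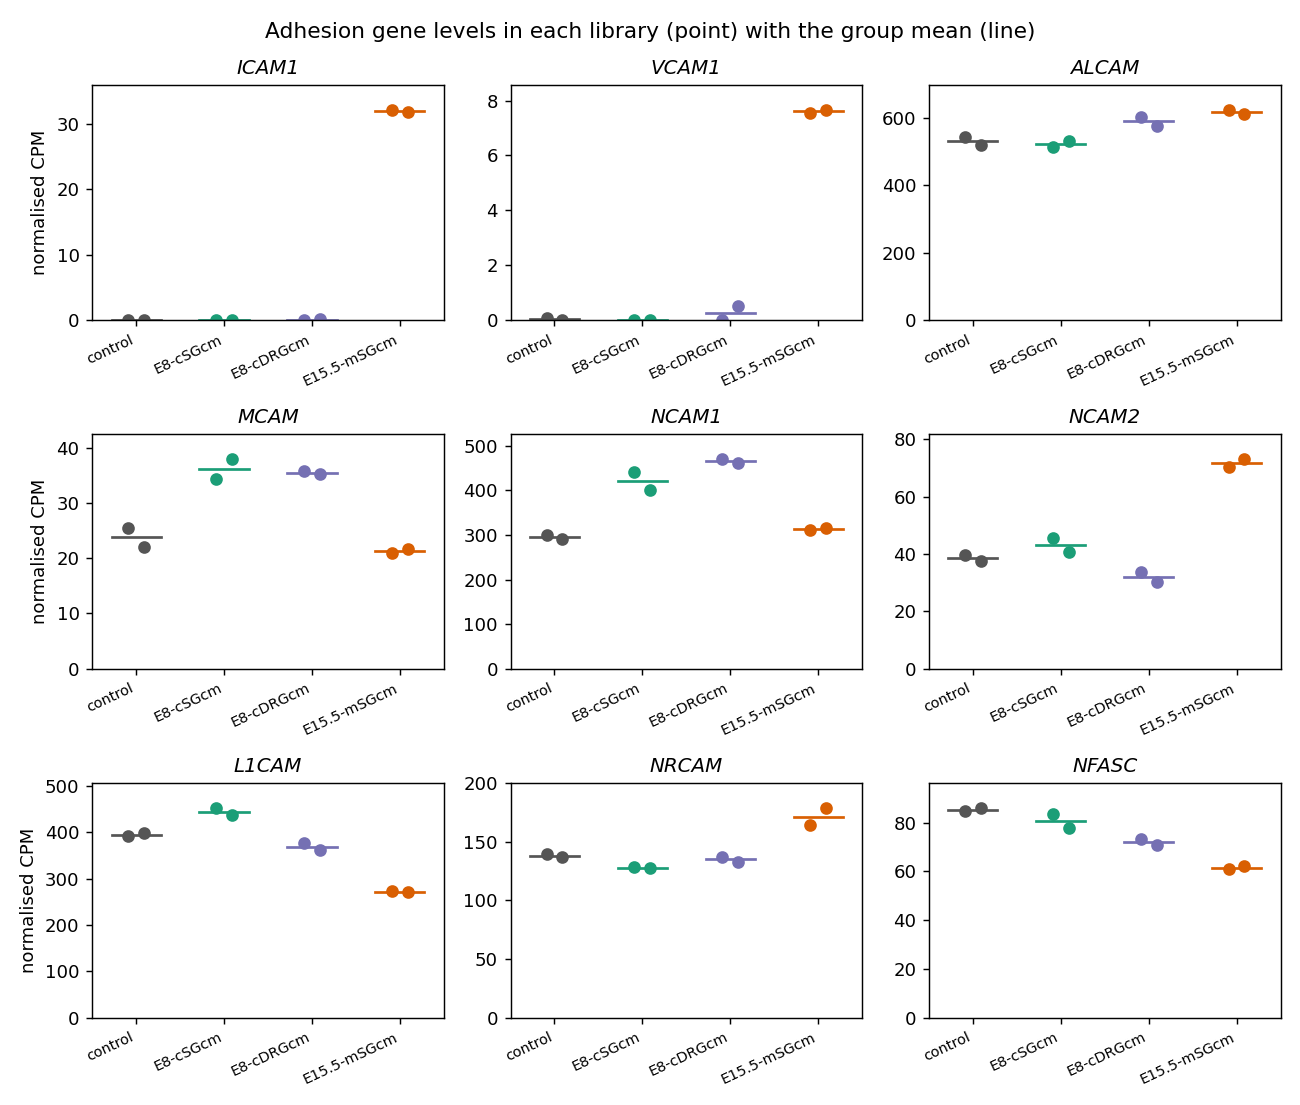
Normalised CPM (y axis, starting at 0, a scale of its own for each gene) of the 9 members with reads, in control medium and the 3 conditioned media (x axis), where points are libraries and lines are group means of 2. ICAM1 and VCAM1 stand at or near 0 outside E15.5-mSGcm, where they average 32.0 and 7.61 CPM, and NCAM2 is highest in E15.5-mSGcm.

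The first question was which members changed in each conditioned medium against control. A gene was called when its edgeR quasi-likelihood adjusted p was below 0.05 and its fold change was at least 1.5. In E15.5-mSGcm, 3 of the 9 tested members were called, ICAM1, VCAM1 and NCAM2, all higher, where 13.9% of all tested genes were called in either direction, 6.65% higher and 7.27% lower. ICAM1 and VCAM1 entered the test through that medium alone, so this count is no measure of the set, and of the 7 members with reads in every library 1 was called. In E8-cSGcm 1 member was called (MCAM, higher), against 8.59% of all genes, 4.73% higher and 3.86% lower, and in E8-cDRGcm 1 (NCAM1, higher), against 20.7% of all genes, 9.81% higher and 10.9% lower. No member was called lower against control in any of the 3 media by edgeR or DESeq2, except that L1CAM in E15.5-mSGcm was called lower by edgeR with a filter at 1 count in total. At an unadjusted p below 0.05, 1 member was lower in E8-cSGcm, 3 in E8-cDRGcm and 2 in E15.5-mSGcm. The share of all tested genes at that unadjusted p was not counted. By the adjusted p alone, 3, 5 and 7 members differed from control in E8-cSGcm, E8-cDRGcm and E15.5-mSGcm, where 31.3%, 49.5% and 37.8% of all tested genes did. Of the 7 members with reads in every library, 3, 5 and 5 did. The 3 comparisons share the control libraries. Over the 7 members with reads in every library the median log2 fold changes were 0.16 in E8-cSGcm, -0.03 in E8-cDRGcm and 0.09 in E15.5-mSGcm, against 0.01, 0.01 and -0.02 over all tested genes.

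ICAM1, on chromosome 19, is bound by the integrins of leukocytes. It had 0 and 0 reads in control, 0 and 0 in E8-cSGcm, 0 and 1 in E8-cDRGcm, and 251 and 279 in E15.5-mSGcm. The E15.5-mSGcm level was 32.0 ± 0.200 CPM (SD, n = 2), and no other library came above the limit of detection. With 3 reads in each library as the floor, ICAM1 was at least 150.1-fold higher than in control and at least 142.1-fold higher than in E8-cSGcm. No edgeR p is given for ICAM1 or VCAM1 in E15.5-mSGcm against the other media, since they passed the filter through E15.5-mSGcm alone. Against E8-cDRGcm the ratio was 865, with an exact 95% counting interval of 155 to 34225, since it rests on a single read there. Genes annotated on the opposite strand of ICAM1 had at most 5 reads in any library.

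VCAM1, on chromosome 1, is the ligand of the integrin made of ITGA4 and ITGB1. The 2 control libraries had 1 and 0 reads, E8-cSGcm 0 and 0, E8-cDRGcm 0 and 7, and E15.5-mSGcm 59 and 67. The E15.5-mSGcm libraries did not overlap any other group, with a mean of 7.61 ± 0.0676 CPM (SD, n = 2). Against control the ratio was 215 (exact 95% counting interval 37.9 to 8568), and against E8-cSGcm the level was at least 33.8-fold higher. Against E8-cDRGcm it was 29.4 (13.8 to 74.6), a difference that DESeq2 did not call (adjusted p = 0.126). The edgeR call is no evidence of its own, since VCAM1 entered that test through E15.5-mSGcm alone. Of the 7 VCAM1 reads in E8-cDRGcm, all came from replicate 2.

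Genes known to respond to NF-kB were examined next to ICAM1 and VCAM1. In E15.5-mSGcm, 11 of 12 tested genes of that list were called higher and none lower, with a median log2 fold change of 1.98, where 6.65% of all tested genes were called higher and 7.27% lower. Of these, CCL2 and TNFAIP3 passed the filter on low counts through E15.5-mSGcm alone, so their calls were fixed in advance. The count and the median include them and are no measure of the list. The list was also chosen with earlier results of these data known, so it gives no independent test. TNFAIP3 had 11 and 29 reads in E15.5-mSGcm and at most 3 in any other library. NFKBIA, the inhibitor that NF-kB itself induces, had 29.5 and 34.7 CPM in control and 222 and 229 in E15.5-mSGcm (log2 fold change 2.81 ± 0.07 SE, adjusted p = 1.78e-27). CCL2, a chemokine, had 210 and 232 reads there and at most 2 in any other library. BIRC3, an inhibitor of apoptosis, rose by 2.94 on the log2 scale and TNFAIP2 by 2.27, with adjusted p of 1.30e-17 and 5.97e-13. TRAF1 was the tested gene that was not called, with a log2 fold change of -0.20 (adjusted p = 0.75). In the chick media, 2 were called higher and 2 lower in E8-cSGcm, with BIRC3 falling by 0.82 (8.59% of all genes called), and 3 higher and 2 lower in E8-cDRGcm, with BIRC3 falling by 1.35 and TNFAIP2 by 0.60 (20.7% of all genes called). NFKB2 was called higher in all 3 media, by 0.91, 1.69 and 2.08 on the log2 scale.

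**Figure D2:**
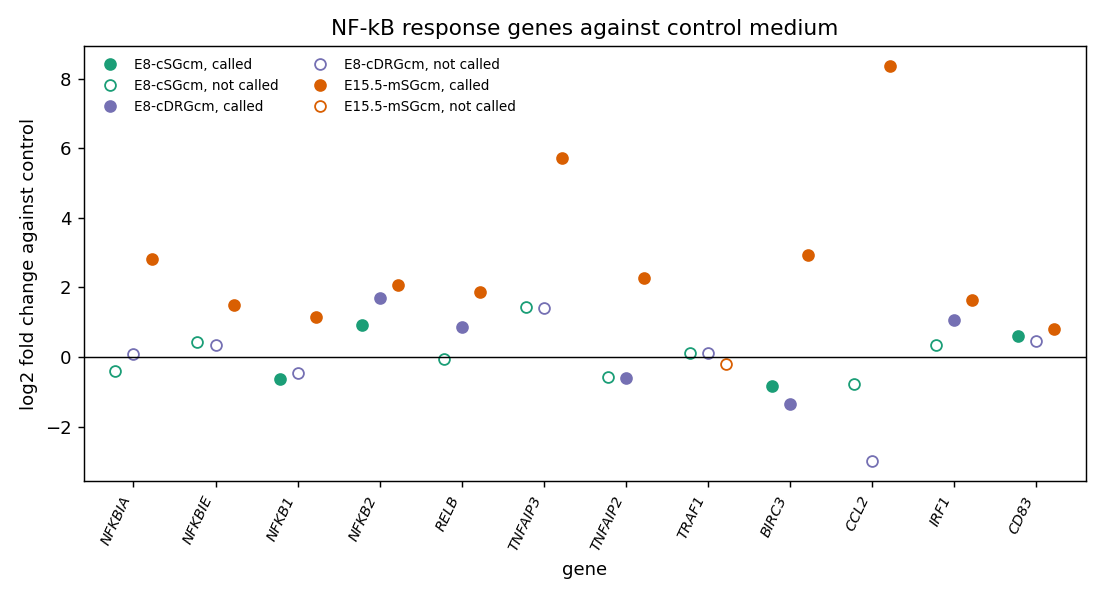
Log2 fold change against control (y axis) for the 12 tested NF-kB response genes (x axis) in each conditioned medium, where filled points passed the adjusted p and the 1.5-fold threshold and open points did not. In E15.5-mSGcm 11 of the 12 points are filled and above 0, and in the chick media filled points lie on both sides of 0. CCL2 and TNFAIP3 passed the filter on low counts through E15.5-mSGcm alone. The list was chosen with earlier results of these data known.

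Some genes followed ICAM1 and VCAM1 over the 8 libraries. By Pearson correlation of log2 CPM, a description over 8 libraries that come in 4 pairs of duplicates, ICAM1 was most like FNIP2 (r = 0.997), MSANTD3 (0.997) and IL32 (0.995). FNIP2 averaged 57.1 CPM in control, 57.9 in both chick media and 123 in E15.5-mSGcm, so the likeness is one of shape and not of size. IL32, a cytokine, had 1.73 ± 0.458 CPM in E15.5-mSGcm and no read elsewhere. VCAM1 was most like JUND (0.996), C1QTNF1 (0.988) and BHLHE40 (0.987), and BHLHE40 averaged 16.0 CPM in control and 41.8 in E15.5-mSGcm. For NCAM2 the most alike were SELENOKP1 (0.992), AIFM1 (0.990) and GLA (0.989). AIFM1 had means of 70.5, 72.3, 64.0 and 91.6 CPM in control, E8-cSGcm, E8-cDRGcm and E15.5-mSGcm, which is the order of NCAM2.

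The integrins that bind ICAM1 and VCAM1 were counted in the same cells. ITGAL and ITGAM, the leukocyte partners of ICAM1, had at most 3 reads in any library, and their common beta chain ITGB2 at most 8. ITGA4 and ITGB1, the partners of VCAM1, were present in control at 86.4 and 86.4 CPM and at 392 and 381 CPM. None of the 3 tested integrin genes was called in any medium by edgeR or DESeq2. By the adjusted p alone, 2 were higher in E8-cSGcm, 2 in E8-cDRGcm and 1 in E15.5-mSGcm, the same counts as at an unadjusted p below 0.05. Of all tested genes, 31.3%, 49.5% and 37.8% passed the adjusted p in either direction in these comparisons. For ITGA4 the log2 fold changes were 0.49, 0.26 and 0.31 in E8-cSGcm, E8-cDRGcm and E15.5-mSGcm, below the 1.5-fold threshold, with adjusted p of 1.79e-08, 0.000285 and 8.59e-05.

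The neural cell adhesion molecules NCAM1 and NCAM2, which bind like molecules on neighbouring cells, differed in the medium where each was highest. NCAM1, on chromosome 11, had 299.6 and 290.3 CPM in control, 441 and 402 in E8-cSGcm, 471 and 463 in E8-cDRGcm, and 311 and 317 in E15.5-mSGcm. Both chick media lay above control without overlap. The log2 fold change was 0.66 ± 0.05 (SE) in E8-cDRGcm (adjusted p = 6.34e-14), and it was 0.51 ± 0.05 in E8-cSGcm (adjusted p = 2.06e-10), short of 1.5-fold. In E15.5-mSGcm it was 0.09 (95% interval -0.01 to 0.19, adjusted p = 0.169).

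NCAM2, on chromosome 21, had 39.6 and 37.6 CPM in control, 45.6 and 40.6 in E8-cSGcm, 33.7 and 30.3 in E8-cDRGcm, and 70.2 and 73.1 in E15.5-mSGcm. The libraries of the 4 groups did not overlap, although the difference between E8-cSGcm and control did not pass the test (log2 fold change 0.16, adjusted p = 0.136). NCAM2 was 1.86-fold higher in E15.5-mSGcm than in control (log2 fold change 0.89 ± 0.08 SE, adjusted p = 1.32e-11). In E8-cDRGcm it was lower by a smaller amount (log2 fold change -0.27, adjusted p = 0.00724), below the fold threshold, and DESeq2 gave an adjusted p of 0.0651. Within a library, there were 7.56 and 7.72 NCAM1 reads for each NCAM2 read in control, 9.67 and 9.89 in E8-cSGcm, 14.0 and 15.3 in E8-cDRGcm, and 4.43 and 4.33 in E15.5-mSGcm. This ratio does not depend on the scaling between libraries, and its 4 groups did not overlap. It is not corrected for GC content, which is 51.9% in the exons of NCAM1 and 35.7% in those of NCAM2.

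Polysialic acid is a sugar chain carried mainly by NCAM1, and 3 sialyltransferases of the ST8SIA family were counted as well. Which of them acts on NCAM1 in these cells was not tested. ST8SIA3 fell in both chick media, from 104 and 101 CPM in control to 61.2 and 63.8 in E8-cSGcm and 50.3 and 45.3 in E8-cDRGcm (log2 fold changes -0.71 and -1.10, adjusted p = 4.58e-11 and 1.80e-16). The other two were higher in both chick media. ST8SIA2 rose by 0.61 in E8-cDRGcm on the log2 scale (adjusted p = 1.64e-05) and was at 0.36 in E8-cSGcm (adjusted p = 0.0132), under the fold threshold. ST8SIA4 was at 0.36 in E8-cSGcm and 0.44 in E8-cDRGcm (adjusted p = 7.85e-05 and 8.49e-07), under it as well. In E15.5-mSGcm none of the 3 enzymes was called by edgeR or DESeq2, and 1, ST8SIA4, was lower at an unadjusted p below 0.05 (-0.36).

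The 3 detected genes of the L1 group moved by less than 1.5-fold against control in every medium, although L1CAM in E15.5-mSGcm passed that fold (-0.60) with a filter at 1 count in total. L1CAM, on chromosome X, had 392 and 399 CPM in control, 453 and 437 in E8-cSGcm, 377 and 362 in E8-cDRGcm, and 272 and 271 in E15.5-mSGcm. It was highest in E8-cSGcm and lowest in E15.5-mSGcm, and no 2 groups overlapped. The log2 fold change was -0.54 ± 0.05 (SE) in E15.5-mSGcm (adjusted p = 2.15e-11), 0.17 ± 0.05 in E8-cSGcm (adjusted p = 0.00474) and -0.10 in E8-cDRGcm (adjusted p = 0.0867). NRCAM, on chromosome 7, which acts with L1CAM in axon guidance, had 139 and 137 CPM in control, 128 and 127.5 in E8-cSGcm, 137 and 133 in E8-cDRGcm, and 164 and 179 in E15.5-mSGcm. Its E15.5-mSGcm libraries lay above the other 6 (log2 fold change against control 0.31 ± 0.06, adjusted p = 2.21e-05). The number of L1CAM reads per NRCAM read was 2.81 and 2.92 in control, 3.54 and 3.43 in E8-cSGcm, 2.75 and 2.73 in E8-cDRGcm, and 1.66 and 1.52 in E15.5-mSGcm. It is not corrected for GC content either (60.6% in L1CAM and 41.5% in NRCAM exons).

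NFASC, on chromosome 1, which organises the axon initial segment, had 84.6 and 86.1 CPM in control, 83.5 and 77.8 in E8-cSGcm, 73.4 and 70.7 in E8-cDRGcm, and 60.9 and 62.0 in E15.5-mSGcm. It was lowest in E15.5-mSGcm (log2 fold change -0.47 ± 0.07 SE, adjusted p = 5.07e-07) and lower than control in E8-cDRGcm as well (-0.25 ± 0.06, adjusted p = 0.00116). In E8-cSGcm the change was -0.08 (95% interval -0.21 to 0.04, adjusted p = 0.318).

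MCAM, on chromosome 11, an adhesion molecule of vascular and melanoma cells, had 25.4 and 22.1 CPM in control, 34.4 and 38.0 in E8-cSGcm, 35.7 and 35.2 in E8-cDRGcm, and 21.0 and 21.6 in E15.5-mSGcm. The chick media lay above control and overlapped each other. MCAM was 1.53-fold higher in E8-cSGcm (log2 fold change 0.61 ± 0.09 SE, adjusted p = 1.30e-06). At 1.498-fold in E8-cDRGcm (0.58 ± 0.09, adjusted p = 1.24e-06) it stopped just short of the threshold. Without control replicate 2 or E8-cSGcm replicate 2 the E8-cSGcm value was 0.51 or 0.54 and was no longer called, and with the correction for GC content and length it was 0.58, just under the fold threshold. MCAM overlaps CBL on the opposite strand, which had 1605 to 4074 reads, and the strand setting of the counting is not given in the sources used here, so reads of the 2 genes may be mixed.

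ALCAM, on chromosome 3, which binds itself and CD6, was the member with the smallest spread of levels, with 544 and 519 CPM in control, 513 and 531 in E8-cSGcm, 604 and 577 in E8-cDRGcm, and 624 and 613 in E15.5-mSGcm. Control and E8-cSGcm overlapped, while E8-cDRGcm and E15.5-mSGcm lay above both. The log2 fold changes were 0.22 ± 0.05 (SE) in E15.5-mSGcm (adjusted p = 0.000398) and 0.15 ± 0.05 in E8-cDRGcm (adjusted p = 0.00798), both below the fold threshold.

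**Figure D3:**
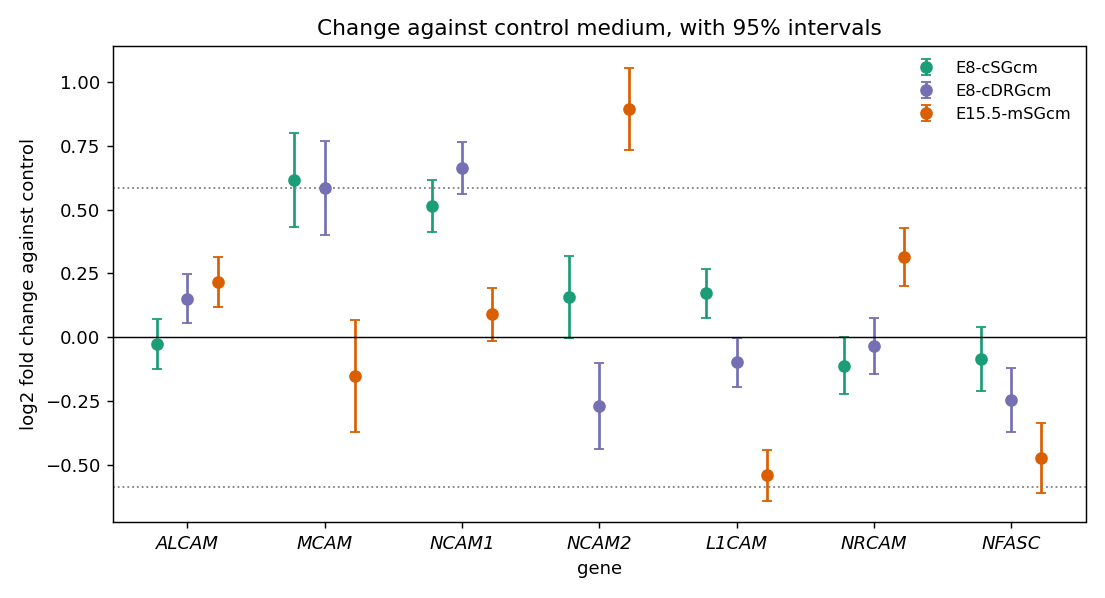
Log2 fold change against control (y axis) with 95% intervals from the edgeR fit, for the 7 members with reads in every library (x axis) in each conditioned medium; dotted lines mark a 1.5-fold change. NCAM2 in E15.5-mSGcm (0.89), NCAM1 in E8-cDRGcm (0.66) and MCAM in E8-cSGcm (0.61) pass the line, and L1CAM in E15.5-mSGcm (-0.54) lies just inside it.

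Among the members that differed from control in E15.5-mSGcm, base composition moved with the direction of change, with ICAM1 as an exception. MCAM (59.1% GC, log2 fold change -0.15, adjusted p = 0.290) and NCAM1 (51.9% GC, 0.09, adjusted p = 0.169) did not differ. NCAM2, ALCAM and NRCAM, which were higher than control at an adjusted p below 0.05, have exons of 35.7%, 38.3% and 41.5% GC, and L1CAM and NFASC, which were lower, 60.6% and 55.3%. VCAM1 and ICAM1, which passed the filter through the high reads of E15.5-mSGcm alone, have 39.9% and 57.4% GC. With a correction for GC content and length, the log2 fold change in E15.5-mSGcm was 0.71 for NCAM2, -0.36 for L1CAM, -0.49 for NFASC, 0.20 for NRCAM and 0.08 for ALCAM (adjusted p = 0.171). NCAM2 was still called.

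The second question was how the media differed from each other. E15.5-mSGcm and E8-cSGcm, the mouse and chick sympathetic media, differed in 5 of 9 members by call, against 22.3% of all tested genes (10.2% higher and 12.1% lower), and in 3 of the 7 with reads in every library. ICAM1, VCAM1 and NCAM2 were higher in the mouse medium, and L1CAM and MCAM lower. Since ICAM1 and VCAM1 passed the filter through E15.5-mSGcm alone, their calls were fixed in advance and the counts over 9 members are no measure of the set. L1CAM was 1.64-fold lower in the mouse medium (log2 fold change -0.71 ± 0.05 SE, adjusted p = 7.46e-15) and MCAM 1.70-fold lower (-0.77 ± 0.10, adjusted p = 7.28e-08). NCAM2 was 1.67-fold higher (0.74 ± 0.08, adjusted p = 6.71e-10). With the correction for GC content and length, NCAM2 (0.51), L1CAM (-0.49) and MCAM (-0.58) kept their direction but fell short of 1.5-fold, leaving 2 members called. By the adjusted p alone all 9 tested members differed, the 7 with reads in every library among them, as did 49.8% of all tested genes.

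E15.5-mSGcm and E8-cDRGcm differed in 4 members by call, where 26.2% of all tested genes were called (13.1% higher and 13.1% lower), and in 8 by the adjusted p alone (52.6% of all tested genes). Of the 7 members with reads in every library, 2 were called and 6 differed by the adjusted p alone. ICAM1, VCAM1 and NCAM2 were higher in E15.5-mSGcm and MCAM was lower (log2 fold change -0.73 ± 0.10 SE, adjusted p = 1.31e-07). Here too the calls of ICAM1 and VCAM1 were fixed in advance by the filter, so the counts that include them are no measure of the set. NCAM2 was 2.24-fold higher (1.16 ± 0.08, adjusted p = 8.03e-15), the widest difference of any member with reads in every library. NCAM1 was lower at -0.57 (adjusted p = 3.78e-12), just inside the fold threshold. With the correction for GC content and length NCAM1 passed it (-0.60) and MCAM did not (-0.58), and NCAM2 was at 1.02.

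The chick media, E8-cDRGcm and E8-cSGcm, had the fewest members called of the 3 pairs of media. VCAM1 was the only member called between them (7.49% of all tested genes, 2.62% higher and 4.87% lower), at an adjusted p of 0.0394 that rests on the 7 reads of E8-cDRGcm replicate 2, and without that library the call was lost. The VCAM1 call was also lost with thinning, without either E8-cSGcm library and without either E15.5-mSGcm library. DESeq2 gave VCAM1 no adjusted p and called no member, and at an unadjusted p below 0.05 edgeR had 3 higher and 3 lower, the same counts as by the adjusted p (30.2% of all tested genes). NCAM2 was lower in E8-cDRGcm (log2 fold change -0.43 ± 0.08 SE, adjusted p = 0.000112), as was L1CAM (-0.27 ± 0.05, adjusted p = 2.81e-05), and ALCAM was higher (0.18 ± 0.05, adjusted p = 0.00404), all under 1.5-fold. For MCAM the difference was -0.03, with a 95% interval of -0.21 to 0.14.

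Other adhesion genes of the immunoglobulin family, 49 by symbol and 38 tested, were examined for comparison. A total of 3 were called higher and 1 lower in E8-cSGcm, 6 higher and 4 lower in E8-cDRGcm, and 4 higher and 7 lower in E15.5-mSGcm, with median log2 fold changes of 0.12, -0.08 and -0.24. Of all tested genes, 8.59%, 20.7% and 13.9% were called in these comparisons. In E15.5-mSGcm the contactins gave 1 gene lower of 4 tested, the IgLON family 2 lower of 4, the nectin group 2 higher of 8, the junction and other ICAM group 1 higher of 7, and the other surface genes 1 higher and 4 lower of 12. None of the 3 tested genes of the Dscam and sidekick group was called in any medium by edgeR or DESeq2, and none had an unadjusted p below 0.05.

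CNTN2, a contactin that binds L1CAM and NRCAM, was lower in all 3 media, at 5.66 and 6.25 CPM in control, 3.37 and 3.01 in E8-cSGcm, 2.54 and 2.56 in E8-cDRGcm, and 1.41 and 1.49 in E15.5-mSGcm (log2 fold changes -0.91, -1.22 and -2.03, adjusted p = 0.000943, 1.44e-05 and 3.19e-07 by edgeR). In E8-cSGcm DESeq2 called no contactin. Of the IgLON genes, IGLON5 fell by 1.08 in E8-cDRGcm and by 1.77 in E15.5-mSGcm, and NTM fell by 0.99 in E15.5-mSGcm. KIRREL3, a homophilic adhesion molecule of neurons, fell by 1.01 in E8-cDRGcm and by 1.62 in E15.5-mSGcm.

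Several of the related genes were called in opposite directions or in one kind of medium. CADM1, a nectin-like synaptic adhesion molecule, had 316 and 317 CPM in control, 211 and 202 in E8-cDRGcm and 487 and 506 in E15.5-mSGcm, a fall of 0.61 and a rise of 0.65 on the log2 scale (adjusted p = 3.20e-13 and 9.14e-14). NECTIN2, of adherens junctions, rose by 0.79 and 1.13 in the chick media and was at -0.33 in E15.5-mSGcm. IGSF8, which associates with tetraspanins, rose by 0.90 and 1.23 in E8-cSGcm and E8-cDRGcm and was at -0.14 in E15.5-mSGcm, and CADM4 rose by 0.66 and 0.68 in the same 2 media. The E8-cDRGcm libraries had 10.4 and 6.59 CPM of CADM4. Of the nectin group, edgeR called 2 genes higher in each chick medium and DESeq2 called 1. In E15.5-mSGcm, PTPRM, a receptor phosphatase that binds itself, rose by 1.54, CADM2 by 1.22 and JAM2, of tight junctions, by 0.90, while KIRREL1 fell by 0.77. Of the tested relatives of ICAM1 by name, ICAM2 and ICAM3 were not called in any medium. ICAM5 was called higher in E8-cDRGcm (1.16, adjusted p = 0.0313), at a mean of only 0.947 CPM over the 8 libraries. ICAM2 had 8.95 and 8.22 CPM in control and 7.43 and 9.48 in E15.5-mSGcm.

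Inside the cell, ankyrins and spectrins hold the L1 group to the cytoskeleton, and doublecortin (DCX) binds NFASC and microtubules. A list of 9 tested cytoskeletal partners held such genes and also EZR, MSN and RDX. Of these 9, 1 was called lower in E8-cSGcm, 1 higher and 2 lower in E8-cDRGcm, and 1 higher in E15.5-mSGcm. Of all tested genes, 8.59%, 20.7% and 13.9% were called in these comparisons. DCX fell from 179 and 172 CPM in control to 86.3 and 82.7 in E8-cDRGcm (log2 fold change -1.06 ± 0.06 SE, adjusted p = 1.33e-17). ANK1 fell by 0.65 in E8-cSGcm and by 1.03 in E8-cDRGcm, SPTBN1 rose by 0.74 in E8-cDRGcm, and ANK2 rose by 0.78 in E15.5-mSGcm. None of the 5 tested proteases that release the ectodomains of such molecules, ADAM10 and ADAM17 among them, was called in any medium by edgeR or DESeq2. By the adjusted p alone, 1 was higher in E8-cSGcm, 2 in E8-cDRGcm, and 2 were higher and 1 lower in E15.5-mSGcm. These counts were the same at an unadjusted p below 0.05. Of all tested genes, 31.3%, 49.5% and 37.8% passed the adjusted p in either direction in these comparisons.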

How the data were processed

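RNA was sequenced from 8 samples of IGR-N91 aggregates as single reads of 75 bp, from 50 ng of total RNA. The authors deposited 1 table of raw counts, whole numbers of reads per Ensembl gene in 8 columns, with no normalisation. The submitters' processing notes name bcl2fastq 2.17.1.14, cutadapt 1.9.1, TopHat2 2.1.0 and HTSeq 0.11.3, and their genome build is given as hg19 in the paper and hg38 in the notes, so no coordinates from the counting are printed; those of the promoter windows are from RefSeq on GRCh38.p14. Counts were fitted as deposited in 1 model of all 8 libraries with edgeR 4.0.16 (TMM scaling, filterByExpr by group, robust quasi-likelihood test) in R 4.3.3, with Benjamini-Hochberg adjustment over 16680 genes, and tested on simulated data. CPM values are TMM-normalised. Symbols, exon lengths and GC content came from GENCODE v44lift37, which matched 58611 of 60676 genes. Depth ran from 7930765 to 15060744 reads, and exact counting intervals and floors cover counting error only, while the other 95% intervals come from the edgeR fit.

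The members and gene lists were chosen with earlier results of these data known. All members were named, and of each other list at most 4 genes, those with the largest absolute log2 fold change against control among genes called in at least 1 medium with a mean of at least 1 CPM. For the 3 members with the widest range of group means, the 3 most correlated genes were named. Integrin chains, ICAM2, ICAM3, ICAM5, TRAF1, TNFAIP3, NFKB2, ST8SIA4, EZR, MSN, RDX, ADAM10 and ADAM17 were named outside this rule, after their values were seen. The symbols PECAM1 and SOD2 had no match and were not analysed here. Alternatives were DESeq2 1.42.0, RLE factors, 2 count filters, only the libraries compared, thinning, a correction for GC content and length, a replicate block, each library left out, and the adjusted p alone. Same-numbered libraries did not deviate together (correlations between groups -0.04 to 0.04), so the numbers were not used as pairs. An exact permutation test of 2 against 2 cannot go below p = 0.333, so none is given. Replicates differed by more than sampling noise (chi-square per gene 1.78 to 3.64). Single values of some cell type markers are not reported here.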

Additional observations from a re-analysis of the deposited data

Results flagged for a closer look

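NCAM2 and L1CAM moved in opposite directions against control in 2 media, each past the adjusted p by edgeR, and the media also differed by call. NCAM2 was higher than control in E15.5-mSGcm (log2 fold change 0.89) and lower in E8-cDRGcm (-0.27), and the difference between these media was 1.16 ± 0.08 (SE, adjusted p = 8.03e-15 by edgeR). L1CAM was lower than control in E15.5-mSGcm (-0.54) and higher in E8-cSGcm (0.17), and the difference between these media was -0.71 ± 0.05 (adjusted p = 7.46e-15). The smaller arms were less firm. For NCAM2 in E8-cDRGcm the adjusted p was 0.0651 with DESeq2, 0.0723 without control replicate 1 and 0.134 without E8-cDRGcm replicate 2, and for L1CAM in E8-cSGcm it was 0.0618 without control replicate 1. With the correction for GC content and length these differences were 1.02 and -0.49, and the second was no longer past 1.5-fold.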

How the results depend on the processing

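Of the alternatives for single members, 844 values kept their direction and their side of the thresholds, 19 no longer passed, 12 newly passed and 9 turned direction. For E8-cSGcm against control, the count of members called was 0 with the GC and length correction (MCAM at 0.58 instead of 0.61), also with the replicate block added, and 3 by adjusted p alone. For E8-cDRGcm against control it was 2 with a filter at 1 count in total, 2 with thinning and 5 by adjusted p alone, and for E15.5-mSGcm 4 with that filter at 1 count (L1CAM at -0.60 added), 1 with a minimum of 10 counts per library, which drops ICAM1 and VCAM1 by construction, and 7 by adjusted p alone. Between E8-cDRGcm and E8-cSGcm it was 0 with DESeq2, which gave VCAM1 no adjusted p, with the filter at 10 counts, with only the libraries compared and with thinning, and 6 by adjusted p alone. Between E15.5-mSGcm and E8-cSGcm it was 3 with the filter at 10 counts, 2 with the GC and length correction, with or without the block, and 9 by adjusted p alone, and between E15.5-mSGcm and E8-cDRGcm 2 with that filter and 8 by adjusted p alone. In comparisons with E15.5-mSGcm the counts by adjusted p alone include ICAM1 and VCAM1, which passed the main filter through that medium. Related genes called in E8-cSGcm numbered 2 with DESeq2 and 17 by adjusted p alone, against 23 in E8-cDRGcm and 21 in E15.5-mSGcm. Leaving out each library gave 0 to 1 members called in E8-cSGcm, 1 to 2 in E8-cDRGcm, 3 to 3 in E15.5-mSGcm, 0 to 1 between the chick media, 5 to 5 between E15.5-mSGcm and E8-cSGcm and 4 to 5 between E15.5-mSGcm and E8-cDRGcm, and 3 to 6, 8 to 10 and 10 to 12 related genes in the 3 media. The direction turned for ALCAM in E8-cSGcm (log2 fold change 0.0078 with the GC and length correction, 0.0081 with the block as well, and -0.0607 to 0.0112 with libraries left out) and between E15.5-mSGcm and E8-cDRGcm (-0.0339 and -0.0338), for MCAM between the chick media (0.0425 with thinning, -0.0994 to 0.0437 with libraries left out) and for VCAM1 in E8-cDRGcm (-2.15 to 4.72 with libraries left out, where the counts are near 0). The cause of these changes was not tested, other than where stated. The replicate block alone gave 1, 1 and 3 members called in E8-cSGcm, E8-cDRGcm and E15.5-mSGcm and 1, 5 and 4 between media, as without it, and 4, 10 and 11 related genes. In the 2 E15.5-mSGcm libraries, 3 reads are worth 0.343 to 0.384 CPM, so lower levels were not detectable there.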
